A study of Homo sapiens with 12 samples.

Results

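RNA was counted in Raji cells for 10 genes that were higher in GFP-low than in GFP-high cells: ADAMTS13, MCRIP1, NME3, TMCC2, MAP2K6, CCDC102A, ALDH4A1, ABCA7, KCNN4 and KCNH2. They are 10 of the 60707 genes in the count table, and all 10 were among the 17859 genes that passed the filter on low counts. The genes were picked by name after earlier work on the same libraries had ranked them in the GFP-low against GFP-high comparisons. Those differences are therefore given as a description with no test, and so are the FX1 differences within each gate, which use the same libraries. The FX1 difference averaged over both gates did not enter the choice and was tested.

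Raji is a human Burkitt lymphoma cell line, and the series used it with an auxin-inducible degron, a tag that lets auxin trigger destruction of the SMARCA4 protein, the motor of the SWI/SNF chromatin remodeller. The 4 groups were GFP-low cells with FX1, GFP-high cells with FX1, GFP-low cells with the vehicle DMSO and GFP-high cells with DMSO, each with 3 libraries taken at 24 h. FX1 is a small molecule that blocks the repressor BCL6. Every library carries the genotype Smarca4+/+ in the labels, which leave unsaid what the GFP gate means for SMARCA4 protein and whether auxin was given to each group. The labels also do not say whether replicates were separate cultures, so the p-values measure the spread between libraries, which may be technical. The fit behind the p-values and standard errors (SE) shared information on spread over all tested genes. They therefore do not rest on a gene's own libraries alone. Anything that differed between the gates in sorting, culture or library preparation cannot be told apart from the gate itself.

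Total counts per library lay between 20454028 and 42556661, and the 10 genes had between 47 and 5431 counts per library. SMARCA4 RNA stood at 452 to 460 CPM in GFP-low FX1 libraries, 386 to 391 in those of GFP-high FX1, 392 to 401 in those of GFP-low DMSO and 376 to 384 in those of GFP-high DMSO. CPM are read counts relative to library size, after TMM scaling, which allows for differences in library composition. A degron acts on protein, so this RNA does not check the gates. Marker lists were summed in CPM without TMM scaling. The 8 B-cell markers, all detected, summed to 3730 to 3752 in GFP-low FX1 libraries, 3899 to 3930 in those of GFP-high FX1, 5100 to 5142 in those of GFP-low DMSO and 5385 to 5460 in those of GFP-high DMSO. The GFP-low sums thus lay below the GFP-high sums within each treatment, but single markers went both ways. Of the 8, edgeR called 2 higher (CD79B and BLK) and 4 lower in GFP-low cells under FX1. Under DMSO 4 were higher, CD79B and BLK again among them, and 4 lower. Over all tested genes the shares higher and lower were 30.2% and 26.7% under FX1, and 21.7% and 24.4% under DMSO. T and NK cell markers summed to 2.69 to 3.22, 3.85 to 4.10, 4.79 to 6.30 and 5.88 to 6.99 in the same order of groups, with CD8A at 0 and 7 of 10 genes below 1 in every library, and all 9 erythroid and megakaryocyte markers were below 1, with 5 at 0. Myeloid and epithelial and stromal sums were higher in GFP-low libraries, without overlap within a treatment, but each difference came mostly from 1 gene. With TMM scaling, ITGAM averaged 5.05 CPM in GFP-low against 1.74 in GFP-high cells under FX1, and 1.91 against 0.87 under DMSO. COL1A1 averaged 16.3 against 8.44 under FX1, and 12.5 against 9.0 under DMSO. Of the other tested markers in these lists, edgeR called CD14 higher under FX1 only, and CSF1R and PECAM1 under neither treatment. Myeloid markers summed to 6.40 to 6.84 in GFP-low FX1 libraries, 2.17 to 2.75 in GFP-high FX1, 2.59 to 3.66 in GFP-low DMSO and 1.86 to 2.25 in GFP-high DMSO, with S100A8 at 0 and 6 of 8 genes (all but CSF1R and ITGAM) below 1. Epithelial and stromal markers summed to 17.3 to 19.0, 8.90 to 9.62, 12.8 to 13.8 and 8.21 to 9.73 in the same order of groups, with COL3A1, KRT18 and KRT19 at 0 and 8 of 10 genes (all but COL1A1 and PECAM1) below 1. The part of these markers in the results was not tested. In bulk RNA, more cells that express a gene and more RNA per cell cannot be told apart.

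The 10 genes do not form a known pathway. KCNN4 and KCNH2 encode pores for potassium ions: KCNN4 (KCa3.1) opens when calcium in the cytoplasm rises and sustains calcium entry in activated lymphocytes, whereas KCNH2 (hERG) opens with voltage and is best known for ending the cardiac action potential. MAP2K6 is a kinase that switches on the p38 stress kinases, and MCRIP1 binds the corepressor CtBP under the control of the ERK kinases. ALDH4A1 carries out the last step of proline breakdown in mitochondria, NME3 belongs to the nucleoside diphosphate kinases, and ABCA7 moves lipids across membranes. ADAMTS13 is the secreted protease that cuts von Willebrand factor. TMCC2 and CCDC102A are coiled-coil proteins, TMCC2 with membrane-spanning segments.

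Promoters of 3 of the genes are shown because they span the range of base composition among the 10 genes, 9 of which are GC-rich. Each ends a little past the RefSeq start (GRCh38.p14), with the GC box (GGGCGG, or CCGCCC on the other strand), the motif that SP1-type factors bind, in capitals. KCNH2 has the most CpG pairs, NME3 the most GC boxes and MAP2K6 the lowest GC content of the 10 promoters. They come from chr7:150978272-150978571 (minus strand), chr16:1771494-1771793 (minus strand) and chr17:69414447-69414746 (plus strand).
KCNH2: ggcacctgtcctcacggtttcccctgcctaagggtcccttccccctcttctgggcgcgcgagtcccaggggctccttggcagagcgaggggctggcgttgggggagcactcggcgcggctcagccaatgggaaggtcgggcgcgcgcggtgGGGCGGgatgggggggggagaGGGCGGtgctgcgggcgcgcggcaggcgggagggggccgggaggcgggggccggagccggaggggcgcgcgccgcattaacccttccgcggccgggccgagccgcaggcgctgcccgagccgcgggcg
NME3: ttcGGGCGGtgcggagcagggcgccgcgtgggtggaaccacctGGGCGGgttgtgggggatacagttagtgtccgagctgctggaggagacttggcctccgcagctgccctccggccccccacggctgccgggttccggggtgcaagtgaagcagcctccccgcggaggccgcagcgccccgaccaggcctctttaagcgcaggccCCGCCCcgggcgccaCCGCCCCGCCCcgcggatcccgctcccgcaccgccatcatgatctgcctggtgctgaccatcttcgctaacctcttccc
MAP2K6: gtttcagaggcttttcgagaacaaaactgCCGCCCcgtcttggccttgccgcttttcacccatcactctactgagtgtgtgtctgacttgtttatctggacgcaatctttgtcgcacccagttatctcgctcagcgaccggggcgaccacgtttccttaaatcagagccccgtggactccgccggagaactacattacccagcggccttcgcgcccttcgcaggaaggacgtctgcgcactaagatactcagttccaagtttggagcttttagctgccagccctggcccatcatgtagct

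GC content was 78.3% in the KCNH2 promoter, 72.0% in that of NME3 and 55% in that of MAP2K6, with 39, 30 and 20 CpG pairs. Over the 10 promoters the median was 70.8% GC and 29.5 CpG pairs, against 64.7% and 26 over the promoters of 10551 tested genes. For the 10 genes the promoter nearest the gene start in the count file was used, and for the background the first listed promoter of each gene. A GC box was found in 10 of 10 promoters and in 67.9% of all these tested genes' promoters, counting both strands. CCAAT was in 3 of 10 (37.7% of all), CACGTG in 2 (10.2%), TGANNNNGC in 6 (44.5%) and TATAAA in 0 (5.98%). TTCNNGAA was in 1 of 10, that of MAP2K6, and in 6.02% of all. These are letter matches and not measured binding, and the window used for ADAMTS13 lies 8009 bases from the gene start in the count file.

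The potassium channels are described first, with the replicates in the order 1 to 3. KCNN4 (ENSG00000104783.14, hg38 chr19:43766533-43781257, minus strand, 8 merged exons) stood at 7.26, 7.57 and 6.61 CPM in GFP-low FX1 libraries, 3.40, 3.01 and 2.96 in GFP-high FX1, 9.99, 11.8 and 10.4 in GFP-low DMSO and 7.45, 6.98 and 7.31 in GFP-high DMSO. Its highest group was thus GFP-low cells without FX1, and no library of a gate overlapped with the other gate under the same treatment. KCNH2 (ENSG00000055118.17, chr7:150944961-150978321, minus strand, 15 merged exons) stood at 7.26, 7.43 and 6.93 CPM in GFP-low FX1 libraries, 3.26, 2.56 and 3.08 in GFP-high FX1, 5.57, 6.28 and 6.10 in GFP-low DMSO and 3.30, 3.69 and 3.82 in GFP-high DMSO. The GFP-low groups lay above the GFP-high groups in every library, under FX1 and DMSO alike. On the log2 scale the GFP-low minus GFP-high difference was 1.197 ± 0.117 (SE) for KCNN4 and 1.27 ± 0.123 for KCNH2 under FX1, and 0.57 ± 0.101 and 0.73 ± 0.130 under DMSO.

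Among the signalling genes, MAP2K6 (ENSG00000108984.15, chr17:69414697-69553865, plus strand, 13 merged exons) had 7.41, 7.50 and 9.14 CPM in GFP-low FX1 libraries, 5.74, 5.02 and 5.13 in GFP-high FX1, 12.1, 11.5 and 13.1 in GFP-low DMSO and 5.76, 6.04 and 6.54 in GFP-high DMSO. Its GFP-low DMSO group stood above the other 3. MCRIP1 (ENSG00000225663.8, chr17:81822361-81833302, minus strand, 5 merged exons) had 17.5, 17.9 and 16.2 CPM in GFP-low FX1 libraries, 10.9, 12.7 and 11.7 in GFP-high FX1, 13.3, 11.1 and 13.1 in GFP-low DMSO and 5.58, 6.29 and 5.78 in GFP-high DMSO. The GFP-high FX1 and GFP-low DMSO libraries of MCRIP1 overlapped, between the high GFP-low FX1 and the low GFP-high DMSO libraries. The GFP-low minus GFP-high log2 difference was 0.57 ± 0.102 (SE) for MAP2K6 and 0.56 ± 0.0734 for MCRIP1 under FX1, and 1.00 ± 0.0994 and 1.07 ± 0.0935 under DMSO.

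For the enzymes, ALDH4A1 (ENSG00000159423.17, chr1:18871430-18902724, minus strand, 17 merged exons) was counted at 7.04, 7.06 and 6.79 CPM in GFP-low FX1 libraries, 4.65, 3.996 and 4.18 in GFP-high FX1, 6.18, 6.03 and 5.98 in GFP-low DMSO and 2.86, 3.10 and 3.31 in GFP-high DMSO. NME3 (ENSG00000103024.8, chr16:1770320-1771561, minus strand) was counted at 22.4, 21.3 and 22.0 CPM in GFP-low FX1 libraries, 11.6, 12.8 and 11.5 in GFP-high FX1, 13.2, 11.96 and 11.9 in GFP-low DMSO and 6.65, 5.51 and 6.25 in GFP-high DMSO. Both were highest in GFP-low FX1 and lowest in GFP-high DMSO libraries, with the GFP-high FX1 and GFP-low DMSO libraries of NME3 overlapping. NME3 shares 32 exon bases (2.58% of its exons) with MAPK8IP3 on the opposite strand, at 112 CPM, and the strand setting of the counting is not given in the sources used here. ADAMTS13 (ENSG00000160323.19, chr9:133414358-133459402, plus strand, 31 merged exons) was counted at 6.17, 5.48 and 6.52 CPM in GFP-low FX1 libraries, 2.42, 2.63 and 2.87 in GFP-high FX1, 5.50, 6.85 and 5.54 in GFP-low DMSO and 2.90, 2.41 and 2.46 in GFP-high DMSO. Its FX1 and DMSO libraries overlapped within each gate. The GFP-low minus GFP-high log2 difference of ADAMTS13 was 1.195 ± 0.133 (SE) under FX1 and 1.22 ± 0.143 under DMSO. NME3 differed by 0.88 ± 0.0693 under FX1 and 1.02 ± 0.0918 under DMSO, and ALDH4A1 by 0.70 ± 0.115 and 0.97 ± 0.132.

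The transporter ABCA7 (ENSG00000064687.13, chr19:1039997-1065572, plus strand, 40 merged exons) had the most counts of the 10 genes. It stood at 121, 119 and 115 CPM in GFP-low FX1 libraries, 54.3, 49.1 and 50.6 in GFP-high FX1, 50.3, 52.2 and 48.3 in GFP-low DMSO and 36.7, 35.6 and 33.3 in GFP-high DMSO. GFP-low FX1 thus stood apart from the other 3 groups. CCDC102A (ENSG00000135736.6, chr16:57512181-57536571, minus strand, 9 merged exons) stood at 9.30, 9.62 and 8.95 CPM in GFP-low FX1 libraries, 4.35, 4.82 and 4.27 in GFP-high FX1, 6.83, 6.82 and 5.33 in GFP-low DMSO and 3.21, 3.22 and 3.14 in GFP-high DMSO. TMCC2 (ENSG00000133069.17, chr1:205227946-205285632, plus strand, 14 merged exons) stood at 7.66, 7.84 and 9.37 CPM in GFP-low FX1 libraries, 5.001, 4.68 and 4.71 in GFP-high FX1, 4.89, 4.73 and 4.24 in GFP-low DMSO and 2.10, 2.69 and 2.04 in GFP-high DMSO. CCDC102A and TMCC2 were likewise highest in GFP-low FX1 and lowest in GFP-high DMSO libraries. The GFP-low minus GFP-high log2 difference of ABCA7 was 1.201 ± 0.0326 (SE) under FX1 and 0.52 ± 0.0417 under DMSO. CCDC102A differed by 1.06 ± 0.107 under FX1 and 0.99 ± 0.129 under DMSO, and TMCC2 by 0.77 ± 0.112 and 1.00 ± 0.148.

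**Figure D1:**
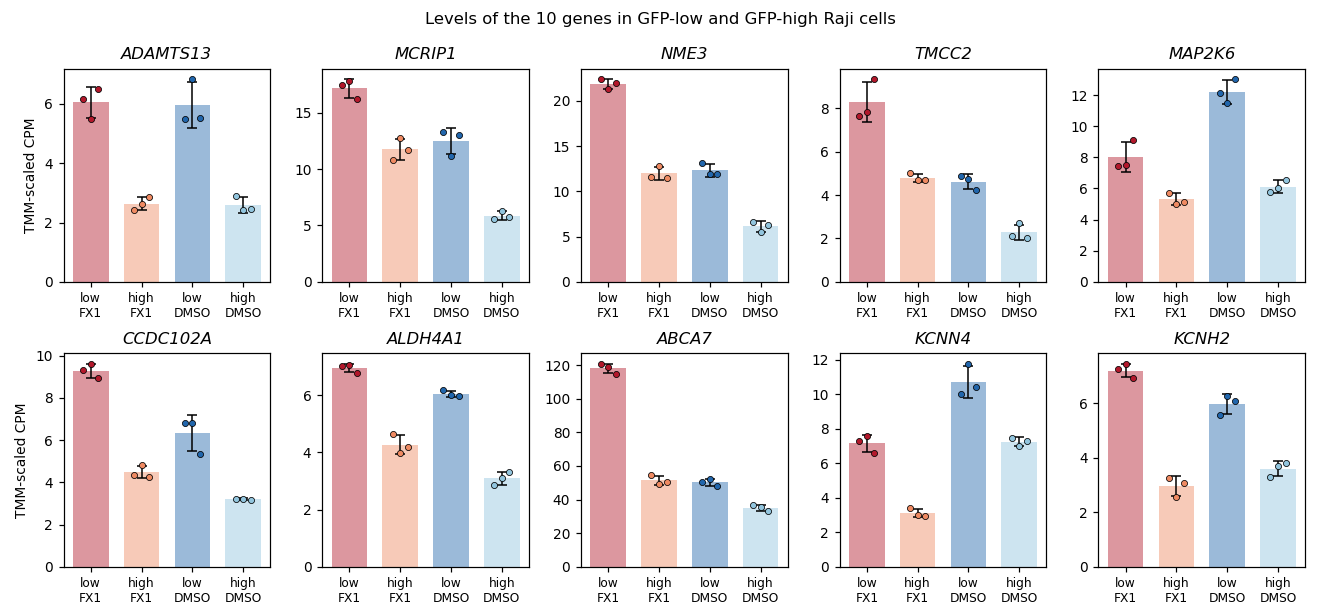
TMM-scaled CPM of each gene in GFP-low FX1, GFP-high FX1, GFP-low DMSO and GFP-high DMSO libraries, from left to right; bars are means, error bars SD (n = 3) and points single libraries, each panel with its own axis from 0. In every panel the GFP-low libraries lie above the GFP-high libraries of the same treatment.

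Per kilobase of exon, a scale that allows genes to be compared, GFP-low FX1 levels ran from NME3 at 17.6 ± 0.444 CPM per kb (SD, n = 3) and ABCA7 at 12.3 ± 0.302 to MAP2K6 at 0.481 ± 0.0582. Between these came MCRIP1 at 4.61 ± 0.232, CCDC102A at 3.64 ± 0.131, KCNN4 at 2.10 ± 0.144, ALDH4A1 at 1.92 ± 0.0406, TMCC2 at 1.42 ± 0.162, ADAMTS13 at 1.06 ± 0.0923 and KCNH2 at 1.0 ± 0.0355. KCNN4 and ALDH4A1, neighbours in this order, had overlapping libraries, and so did ADAMTS13 and KCNH2. NME3 was also the highest of the 10 per kilobase in GFP-high DMSO cells, at 4.94 ± 0.467 CPM per kb.

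All 10 genes had every GFP-low library above every GFP-high library under FX1 and under DMSO, a pattern the choice of genes used. Over all tested genes it was found for 33.1% under FX1, 25.2% under DMSO and 16.7% under both. The median GFP-low minus GFP-high log2 difference of the 10 genes was 0.97 under FX1 and 0.99 under DMSO, against 0.08 and 0.03 over all 17859 tested genes. Membership had no numerical threshold. The smallest difference of a member was the 0.52 of ABCA7 under DMSO, and 1079 other tested genes were at least this much higher under both treatments, 152 of them at a mean log2 CPM of 2 or more. KCNH2 ranked highest of the 10 under FX1, at place 380 of 17859, and ADAMTS13 under DMSO, at place 342. The order within the 10 genes differed between the treatments: KCNH2, ABCA7, KCNN4 and ADAMTS13 led under FX1, whereas ABCA7, KCNN4 and KCNH2 were the last 3 under DMSO. The choice of genes used these same differences, so their order may reflect how the genes were picked.

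Most of the 10 genes were GC-rich. Transcript GC content, that of the longest annotated transcript, was 60.3% to 66.8% in 9 of the 10 genes and 38.5% in MAP2K6, with a median of 63.0%, against 47.7% over the tested genes. Only 11.9% of tested genes reached 60%. Over 17557 genes with a GC value, GC content and the GFP-low minus GFP-high difference had a Spearman rho of 0.52 under FX1 and 0.31 under DMSO, a description across genes that share the same libraries. The 1725 tested genes between 60.3% and 66.8% GC had a median log2 difference of 0.45 under FX1 and 0.24 under DMSO, and 71.4% and 47.9% of them were called higher in GFP-low cells. Below 40% GC, the range that holds MAP2K6, the medians of 2989 genes were -0.29 and -0.12, and 5.19% and 8.83% were called higher. The median gene of like composition was thus also higher in GFP-low cells for the 9 GC-rich genes, and lower for MAP2K6.

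**Figure D2:**
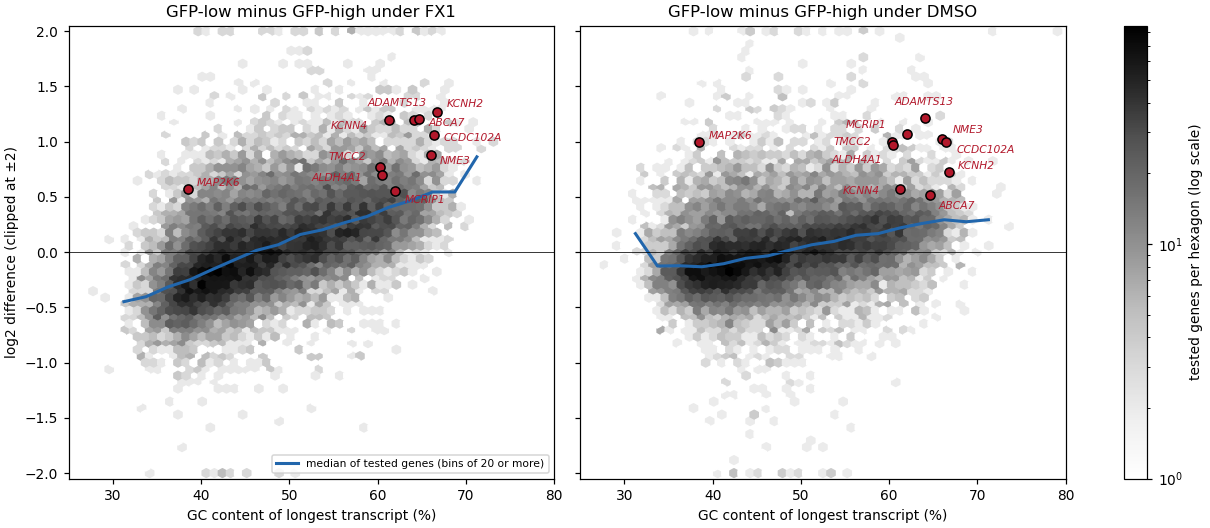
Transcript GC content (x axis, %) against the GFP-low minus GFP-high log2 difference (y axis) of all tested genes, shaded by number on a log scale, under FX1 (left) and DMSO (right); the blue line joins medians of bins with at least 20 genes. The 9 GC-rich genes (red) sit where the median is above 0, and MAP2K6, at 38.5% GC, where it is below 0.

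The libraries themselves differed in composition by group. The mean transcript GC content weighted by counts was 48.4% in all 3 GFP-low FX1 libraries, 47.3% to 47.4% in those of GFP-high FX1, 47.3% in those of GFP-low DMSO and 46.7% in those of GFP-high DMSO. Mitochondrial genes took 5.05% to 5.13%, 4.23% to 4.32%, 4.72% to 4.84% and 7.84% to 7.91% of counts in the same order, and RN7SL1, the RNA of the signal recognition particle, 0.549% to 0.587%, 0.301% to 0.346%, 0.309% to 0.361% and 0.161% to 0.183%. The part of the mitochondrial and RN7SL1 shares in the results was not tested.

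A fit that removed a smooth trend of each library on GC content and transcript length gave smaller gate differences for the GC-rich genes, all still above 0. It takes out any difference that follows GC content or length, whatever its source. The median of the 10 genes was then 0.63 under FX1 and 0.76 under DMSO, against 0.02 and 0.01 over all genes. MCRIP1 under FX1 had the smallest remaining value, 0.18 ± 0.0737 (SE), against 0.56 before, and NME3 stood at 0.40 ± 0.0698 against 0.88. ABCA7 stood at 0.70 ± 0.0326 under FX1 and 0.23 ± 0.0419 under DMSO. The values of KCNN4 and KCNH2 under FX1 were 0.83 ± 0.117 and 0.77 ± 0.123, and that of ADAMTS13 under DMSO was 0.97 ± 0.143. MAP2K6 was the gene whose differences grew, to 0.78 ± 0.102 under FX1 and 1.05 ± 0.0993 under DMSO. With the trend removed, MAP2K6 and ADAMTS13 had the largest differences of the 10 genes under DMSO, and KCNN4, MAP2K6 and KCNH2 under FX1.

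**Figure D3:**
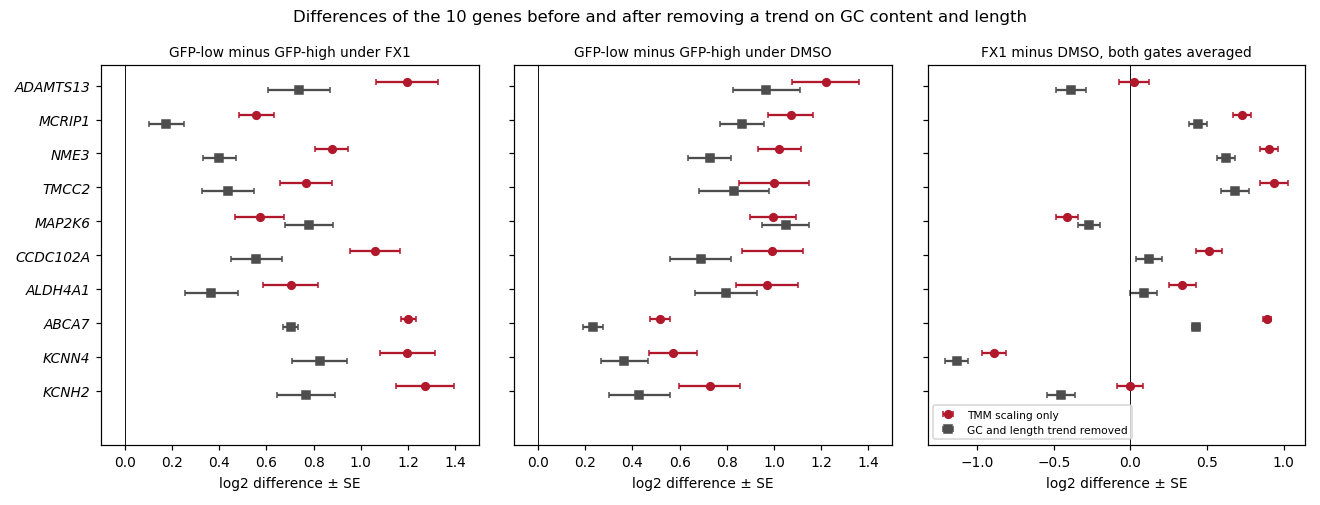
Log2 differences ± SE of the 10 genes for GFP-low minus GFP-high under FX1, GFP-low minus GFP-high under DMSO and FX1 minus DMSO averaged over the gates, with TMM scaling only (red circles) and after removal of the GC and length trend (grey squares). The gate differences stay above 0 in both fits, whereas the FX1 difference of ADAMTS13 changes side.

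The response to FX1 was tested as the mean of both FX1 groups minus the mean of both DMSO groups, the measure that the choice of genes did not use. With edgeR's quasi-likelihood test, Benjamini-Hochberg adjusted over all tested genes at a threshold of 0.05, 8 of the 10 genes were called, 6 higher and 2 lower with FX1. The background was 75.8% of all tested genes (37.1% higher and 38.7% lower), so a count of 8 of 10 is near that of genes in general. TMCC2 rose by 0.94 ± 0.0922 log2 (SE, edgeR adjusted p = 7.24e-20), NME3 by 0.90 ± 0.0573 (adjusted p = 3.66e-38), ABCA7 by 0.89 ± 0.0263 (adjusted p = 5.46e-92) and MCRIP1 by 0.73 ± 0.0594 (adjusted p = 1.61e-26). CCDC102A rose by 0.51 ± 0.0848 (edgeR adjusted p = 1.07e-08) and ALDH4A1 by 0.34 ± 0.0882 (adjusted p = 0.00028). KCNN4 fell, with a difference of -0.89 ± 0.0775 (edgeR adjusted p = 3.89e-24), as did MAP2K6, with -0.41 ± 0.0721 (adjusted p = 5.74e-08). ADAMTS13 at 0.02 ± 0.0998 (edgeR adjusted p = 0.841) and KCNH2 at -0.00188 ± 0.0867 (adjusted p = 0.986) did not pass. The median of the 10 genes was 0.43, against -0.01 over all genes.

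GC content also went with the FX1 difference, with a Spearman rho of 0.25 over 17557 genes and a median of 0.36 over the 1725 genes in the GC range of the 9 GC-rich members. With the GC and length trend removed, again 8 of 10 genes were called (75.1% of all genes), now 4 higher and 4 lower, against 40.8% and 34.2% of all genes. TMCC2 (0.68 ± 0.0925), NME3 (0.62 ± 0.0578), MCRIP1 (0.44 ± 0.0599) and ABCA7 (0.43 ± 0.0265) remained higher. KCNN4 (-1.14 ± 0.0773) and MAP2K6 (-0.27 ± 0.0721, edgeR adjusted p = 0.000333) remained lower. CCDC102A at 0.12 ± 0.0851 (edgeR adjusted p = 0.189) and ALDH4A1 at 0.09 ± 0.0883 (adjusted p = 0.37) no longer passed. ADAMTS13 at -0.39 ± 0.100 (edgeR adjusted p = 0.000222) and KCNH2 at -0.45 ± 0.0907 (adjusted p = 2.06e-06) were called lower in this fit, so a direction for them rests on the treatment of GC content.

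Within the gates, the FX1 minus DMSO differences of several genes were unequal, a contrast that shares its libraries with the choice of genes and was not tested. ABCA7 differed by 1.23 ± 0.0337 log2 (SE) in GFP-low cells and 0.55 ± 0.0405 in GFP-high cells. MCRIP1 went the other way, with 0.47 ± 0.0749 in GFP-low and 0.99 ± 0.0922 in GFP-high cells. KCNN4 differed by -0.58 ± 0.0978 in GFP-low and -1.205 ± 0.120 in GFP-high cells, and MAP2K6 by -0.63 ± 0.0921 and -0.20 ± 0.111. NME3 (0.83 ± 0.0711 and 0.98 ± 0.0901), TMCC2 (0.82 ± 0.116 and 1.05 ± 0.144) and CCDC102A (0.55 ± 0.104 and 0.48 ± 0.134) were closer to each other in GFP-low and GFP-high cells. ALDH4A1 stood at 0.20 ± 0.112 in GFP-low and 0.47 ± 0.137 in GFP-high cells, and ADAMTS13 at 0.01 ± 0.120 and 0.04 ± 0.160. KCNH2 had opposite signs, 0.27 ± 0.113 in GFP-low and -0.27 ± 0.142 in GFP-high cells. Its FX1 libraries lay above the DMSO libraries in GFP-low cells and below them in GFP-high cells, a pattern not counted over all tested genes. After removal of the GC and length trend KCNH2 stood at -0.29 ± 0.112 in GFP-low and -0.62 ± 0.142 in GFP-high cells, and ALDH4A1 was then the gene with opposite signs, at -0.13 ± 0.111 and 0.30 ± 0.137. ADAMTS13 stood at -0.50 ± 0.120 and -0.27 ± 0.160 in that fit, MCRIP1 at 0.10 ± 0.0753 and 0.79 ± 0.0928, and CCDC102A at 0.06 ± 0.104 and 0.19 ± 0.134. ABCA7 stood at 0.66 ± 0.0338 in GFP-low and 0.19 ± 0.0408 in GFP-high cells, and KCNN4 at -0.90 ± 0.0976 and -1.365 ± 0.120. The signs of KCNH2 and ALDH4A1 in GFP-low cells thus rest on the treatment of GC content. In GFP-high cells KCNH2 was negative and ALDH4A1 positive in both fits. ADAMTS13, with differences smaller than their SE before, was negative in both gates after removal of the trend.

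**Figure D4:**
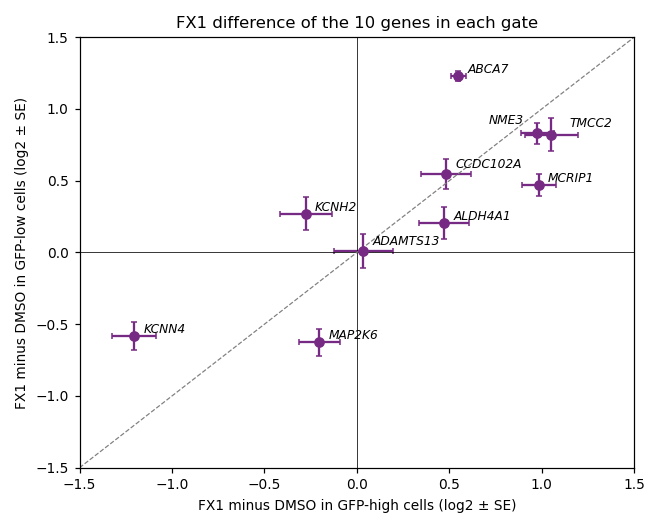
FX1 minus DMSO log2 difference ± SE of the 10 genes in GFP-high cells (x axis) and GFP-low cells (y axis); the dashed line marks equal differences. ABCA7 and KCNH2 lie above the line, MCRIP1 and MAP2K6 below it, and KCNN4 is lower with FX1 in both gates.

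Other genes of the same families and pathways, from lists set with earlier results known, went in both directions. Of 148 listed genes that are not among the 10, 72 were tested. Under FX1, 29 were called higher and 21 lower in GFP-low cells by edgeR (30.2% and 26.7% of all tested genes, 56.9% in all), and under DMSO 23 higher and 13 lower (21.7% and 24.4%, 46.1% in all). After removal of the GC and length trend the counts were 17 higher and 20 lower under FX1 (21.1% and 27.2% of all genes) and 19 higher and 9 lower under DMSO (17.7% and 23%). Under DMSO more of the listed genes were thus called higher than lower in both fits, whereas all tested genes had more called lower. This lean was not tested. The paragraphs that follow give adjusted p-values from edgeR's quasi-likelihood test over all genes, first under FX1 and then under DMSO.

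Of 15 tested potassium channel pore genes, 6 were higher and 4 lower in GFP-low cells under FX1, and 3 higher and 2 lower under DMSO, or 5 and 3 under FX1 and 3 and 1 under DMSO with the trend removed. The shares called under FX1 are near those of all tested genes. KCNK12, a tandem-pore channel gene, rose by 0.60 ± 0.0818 (adjusted p = 1.69e-11) and 0.68 ± 0.0848 (adjusted p = 3.1e-13), and by 0.27 and 0.51 with the trend removed. KCNJ1, an inward rectifier, fell, with -1.37 ± 0.179 (adjusted p = 1.83e-12) and -0.56 ± 0.181 (adjusted p = 0.00591). KCNQ5, the voltage-gated channel with 160.5 ± 5.53 CPM in GFP-low FX1 and 191.5 ± 2.24 CPM in GFP-high FX1 cells (SD, n = 3), fell by 0.25 on the log2 scale (adjusted p = 8.29e-25) under FX1.

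The p38 cascade had 22 tested genes, of which 9 were higher and 6 lower under FX1, and 8 higher and 5 lower under DMSO. With the trend removed these counts were 4 higher and 5 lower under FX1 and 5 higher and 4 lower under DMSO. MAP2K3, the kinase closest in function to MAP2K6, rose by 0.52 ± 0.0332 (adjusted p = 5.45e-37) and 0.44 ± 0.0416 (adjusted p = 1.67e-20), and by 0.19 and 0.26 with the trend removed. MAPK12, the p38 gamma kinase, rose by 0.63 ± 0.0287 (adjusted p = 6.32e-56) and 0.17 ± 0.0344 (adjusted p = 7.48e-06), but stood at 0.12 under FX1 and -0.13 under DMSO with the trend removed. MEF2A, a transcription factor that p38 phosphorylates, fell, with -0.48 ± 0.0252 (adjusted p = 3.97e-48) and -0.32 ± 0.0245 (adjusted p = 1.57e-28). In the CtBP list of 6 tested genes, 4 were higher and 2 lower under FX1 and 3 higher and 2 lower under DMSO. The balance turned with the trend removed, to 1 higher and 3 lower under FX1, and was 1 and 1 under DMSO. MCRIP2, the paralog of MCRIP1, was higher under FX1 (0.26 ± 0.0383, adjusted p = 2.3e-10) and lower under DMSO (-0.11 ± 0.0463, adjusted p = 0.0492), and stood at -0.11 and -0.31 with the trend removed.

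Of 10 tested genes of proline metabolism, 2 were higher and 5 lower under FX1, and 4 higher and 3 lower under DMSO, or 0 and 7 under FX1 and 4 and 2 under DMSO with the trend removed. PYCR1, which makes proline, the opposite direction to ALDH4A1, rose by 0.23 ± 0.0294 (adjusted p = 1.07e-12) and 0.54 ± 0.0332 (adjusted p = 2.57e-39), with -0.14 and 0.34 once the trend was removed. Among 8 tested ABCA transporters, 3 were higher and 2 lower under FX1, and 1 higher and 1 lower under DMSO, or 3 and 1, and 1 and 1, with the trend removed. ABCA1, the cholesterol exporter, rose by 0.66 ± 0.0443 (adjusted p = 9.62e-35) and 0.69 ± 0.056 (adjusted p = 3.53e-26), and by 0.67 and 0.72 with the trend removed. ABCA6 fell, with -1.18 ± 0.193 (adjusted p = 1.23e-08) and -0.69 ± 0.143 (adjusted p = 1.17e-05).

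In the remaining lists, 3 of 5 tested NME genes were higher and 1 lower under FX1, and 2 higher and 0 lower under DMSO, or 2 and 1, and 2 and 0, with the trend removed. NME4, the mitochondrial nucleoside diphosphate kinase, rose by 0.59 ± 0.0381 (adjusted p = 6.49e-37) and 0.47 ± 0.0374 (adjusted p = 3.93e-27), and by 0.26 and 0.29 with the trend removed. NME2 rose by 0.47 ± 0.0818 under FX1 (adjusted p = 9.49e-08), but stood at 0.06 (adjusted p = 0.566) with the trend removed, and it is nearly identical to NME1, so reads may be split between them. Of 3 tested ADAMTS genes, ADAMTS6 was called, higher by 0.76 ± 0.108 (adjusted p = 1.09e-10) and 0.56 ± 0.112 (adjusted p = 3.93e-06). Of 3 tested paralogs of TMCC2 and CCDC102A, CCDC102B was called higher under both treatments, by 0.81 ± 0.244 (adjusted p = 0.00235) and 0.79 ± 0.285 (adjusted p = 0.0147), and TMCC1 lower under FX1, at -0.12 ± 0.0478 (adjusted p = 0.0242), a call lost with the trend removed (-0.09, adjusted p = 0.0986).

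The genes next to the 10 on their chromosomes were also mostly higher in GFP-low cells. Of the 20 nearest tested neighbours, 12 were called higher and 2 lower under FX1, and 11 higher and 3 lower under DMSO, with median log2 differences of 0.27 and 0.17. Among those higher under both is ENSG00000278972, which lies within MAP2K6 on the same strand, so some of its reads may be those of MAP2K6. The distance between gene starts ran from 1570 bases (MRPS34 and NME3) to 1116097 (ACTL8 and ALDH4A1). The 20 neighbours had a median GC content of 56.6%, and 57.1% and 37.7% of all tested genes between 55% and 60% GC were called higher. CACFD1, beside ADAMTS13, rose by 1.02 ± 0.149 (edgeR adjusted p = 1.98e-10) under FX1 and 0.92 ± 0.193 (adjusted p = 1.35e-05) under DMSO. IFFO2, beside ALDH4A1, rose by 1.14 ± 0.159 (edgeR adjusted p = 4.19e-11) and 0.66 ± 0.164 (adjusted p = 0.000299). NOS3, the endothelial nitric oxide synthase gene beside KCNH2, rose by 0.43 ± 0.0632 (edgeR adjusted p = 2.35e-10) and 0.35 ± 0.0712 (adjusted p = 8.14e-06). MRPS34, a mitochondrial ribosomal protein gene beside NME3, stood at 0.04 ± 0.0315 (edgeR adjusted p = 0.224) under FX1 and fell under DMSO, with -0.30 ± 0.0319 (adjusted p = 1.1e-16). CNN2, beside ABCA7, fell under both, with -0.14 ± 0.0224 (edgeR adjusted p = 1.77e-08) and -0.20 ± 0.0246 (adjusted p = 3.79e-13).

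The mean profile of the 10 genes over the 12 libraries, in log2 CPM centred per gene, was nearest to ALDH4A1 among them (root mean square distance 0.0974) and farthest from KCNN4 (0.575). Among 10147 other genes at a mean log2 CPM of 2 or more, the closest to this profile were IGLV6-57 (distance 0.0851), NBEAL2 (0.0923), PPP1R35 (0.0952), FBXL8 (0.103) and MAD1L1 (0.106). IGLV6-57, at 56.9% GC, is a segment of a multigene family, and whether related segments share its reads was not checked. The GC content of the other 4 was 62.4% to 69.4%.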

How the data were processed

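RNA of 12 Raji libraries was sequenced after removal of ribosomal RNA from total RNA (KAPA RNA HyperPrep), as the labels' protocols state. The tools were FastQC, STAR (hg38), featureCounts of Subread and R 4.2.1, per the submitters' processing notes. As deposited, the table holds raw, whole-number counts per gene over merged exons, per the file headers. The other versions, the annotation release and the strand setting are not given in the sources used here. Reads carry no molecular identifiers, so PCR copies are counted too.

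Of 60710 lines in the table, 3 forming a broken record were left out, and 60462 of 60707 genes (99.6%) had a symbol. Columns without a sample numbered 0. Gates and replicate numbers came from the sample titles, which give the treatment only as treated or untreated. FX1 is named in the count columns and in a treatment label. Libraries titled untreated form the DMSO groups here, and those titled treated the FX1 groups. No pair of replicates agreed within sampling noise, with a variance of 1.71 to 2.09 times that noise.

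Group differences in counts were tested in R 4.3.3 with edgeR 4.0.16 (filterByExpr, TMM, robust quasi-likelihood fit to all 4 groups, 8 residual degrees of freedom, common biological coefficient of variation 1.67%), and p-values were adjusted by Benjamini-Hochberg over 17859 genes. The procedure was also tested on simulated data. GC content came from the longest GENCODE v29 transcript (GRCh38), for 17557 of the tested genes (98.3%). Its trend and that of log2 length were fitted per library with mgcv 1.9.3 (basis of 10) and entered as offsets. Promoter sequences came from RefSeq (GRCh38.p14) and matched all 10 genes.

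The genes, lists and tests were chosen with earlier results of these data known. Named besides the 10 genes were up to 2 genes of each list with the lowest p per gate comparison, some nearest neighbours and the 5 closest profiles. A few genes taken by this rule are not reported here and still count in the totals. Lists covered potassium channels, the p38 cascade, proline metabolism, ABCA, ADAMTS and NME genes, paralogs of TMCC2 and CCDC102A, CtBP corepressors, and markers of B, T and NK, myeloid, erythroid and megakaryocyte, and epithelial and stromal cells. Alternatives were DESeq2 1.42.0, DESeq2 size factors in edgeR, low-count filters, the replicate number as a block, scaling without mitochondrial and abundant genes, removal of a GC trend with or without length, only the groups compared, and leaving out each library.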

Additional observations from a re-analysis of the deposited data

Results flagged for a closer look

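KCNH2, the hERG potassium channel gene, was singled out because its libraries with FX1 lay on opposite sides of those with DMSO in the gates. The FX1 minus DMSO log2 difference was 0.27 ± 0.113 (SE) in GFP-low cells, where every FX1 library lay above every DMSO library, and -0.27 ± 0.142 in GFP-high cells, where every FX1 library lay below every DMSO library. This difference between the gates was not tested, since the same libraries chose the gene. The GFP-low value minus the GFP-high value was 0.55 ± 0.181 (SE), and 88.8% of tested genes had a smaller value. How many of all tested genes have FX1 libraries on opposite sides of the DMSO libraries in the gates was not counted. After removal of the GC and length trend the values were -0.29 ± 0.112 in GFP-low and -0.62 ± 0.142 in GFP-high cells, so the opposite signs were not seen in that fit.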

How the results depend on the processing

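The call of 8 of 10 genes for FX1 minus DMSO averaged over the gates held in number under every alternative run, from 8 to 8 without each library in turn. Which genes they were changed with removal of the GC trend. ADAMTS13 was then at -0.39 (GC and length), -0.39 (with the replicate block as well) and -0.31 (GC alone), against 0.02 before, CCDC102A and ALDH4A1 were no longer called, and KCNH2 was called lower. The median FX1 difference of the 10 genes was 0.43, and 0.10, 0.10 and 0.12 under those settings in the same order. The median GFP-low minus GFP-high difference under FX1 was 0.97, and 0.63, 0.62 and 0.66, and under DMSO it was 0.99, and 0.76, 0.76 and 0.76. Under FX1 it was 1.01 with at least 50 counts in 3 libraries, 0.93 with scaling that left out mitochondrial genes and any gene above 1% of a library, and 0.92 with only the groups compared. Leaving out each library in turn gave medians of 0.40 to 0.44 for FX1, 0.93 to 1.02 for the gate under FX1 and 0.95 to 1.01 for the gate under DMSO. Family and pathway genes called numbered 50 under FX1 (46 to 51 without each library) and 36 under DMSO (30 to 37), and 37 to 52 and 28 to 37 over all alternatives.

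Same-numbered libraries did not deviate together (r between -0.0246 and 0.0214 over 9306 genes, against -0.0318 to 0.024 for other numbers). The counts thus show no pairing by number, but they cannot tell whether the libraries were paired in culture or sorting. With the replicate block, 8 of the 10 genes and 50 and 36 family genes were called, with medians of 0.43, 0.96 and 0.99. At 47 counts in its thinnest library, a gene such as TMCC2 is limited by counting error, and the errors cover the spread between these libraries only.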
